A study of Mus musculus with 8 samples.

Results

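The ErbB receptors and their ligands were followed in RNA from mouse cardiac ventricles as a set of 10 genes. They are the receptor genes Erbb2, Erbb3, Erbb4 and Egfr, and the ligand genes Nrg1, Nrg4, Hbegf, Btc, Areg and Ereg. The genes were found by symbol, and each matched 1 of the 23100 loci in the authors' gene table. The set was selected on the FPKM values and Cuffdiff calls of this same genotype comparison, so the levels and calls of the 10 genes describe these samples and carry no test of their own.

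The double knockout group (DKO) held 4 mice with the alleles Sox5fl/fl and Sox6fl/fl and with aMHC-Cre, whose promoter drives Cre recombinase in cardiomyocytes. The control group (Ctrl) held 4 mice with the same loxP-flanked alleles of these SoxD transcription factor genes and without Cre. All 8 animals were 4.5 months old, the atria had been removed, and the labels give no operation for them. Cre and the deletion of Sox5 and Sox6 cannot be told apart, because Ctrl mice lacked Cre, and ventricular cells other than cardiomyocytes keep both genes.

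ErbB receptors are tyrosine kinases of the cell surface that pair with each other once a ligand with an EGF-like domain binds. Erbb2 has no known ligand and serves as the shared partner, and Erbb3 has little kinase activity and signals through its partners. In the mouse heart, neuregulin-1 made by endothelial cells acts on Erbb4 and Erbb2 of cardiomyocytes, and loss of Erbb2 from ventricular muscle leads to dilated cardiomyopathy.

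Every level below is an FPKM value of the authors, that is, mapped fragments scaled for transcript length and sequencing depth. There is 1 such value per genotype, pooled over its 4 animals, so no value has an error between animals. Sox6 was at 1.69 FPKM in DKO, against 3.39 FPKM in Ctrl (q = 0.00158 in the authors' deposited table). Sox5 was at 0.497 FPKM in DKO and 0.369 FPKM in Ctrl and was not tested by Cuffdiff, so its values do not check the label. The ventricular light chain gene Myl2 stood at 17014 FPKM in DKO and 20639 FPKM in Ctrl, and this defining ventricular marker was abundant in each genotype. A gene was called when its q in the authors' deposited table was at most 0.05, and 4.3% of the 12133 tested genes were called higher and 3.06% lower in DKO.

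Of the 10 ErbB genes, 6 were tested by Cuffdiff, and 1 was called. Erbb4 was lower in DKO ventricles, at 0.927 FPKM against 1.71 FPKM in Ctrl, a fold of 1.85. Neither Erbb2, Erbb3 nor Egfr was called, and the tested ligands Hbegf and Nrg4 were not called either. An unadjusted p under 0.05 was reached by 3 of the 6 (Erbb4, Erbb3 and Hbegf), beside 16.5% of all tested genes, and by 3 of their 6 tested isoforms, beside 10.3% of all tested isoforms. Nrg1, Btc, Areg and Ereg were not tested and lay below 1 FPKM in both genotypes.

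**Figure D1:**
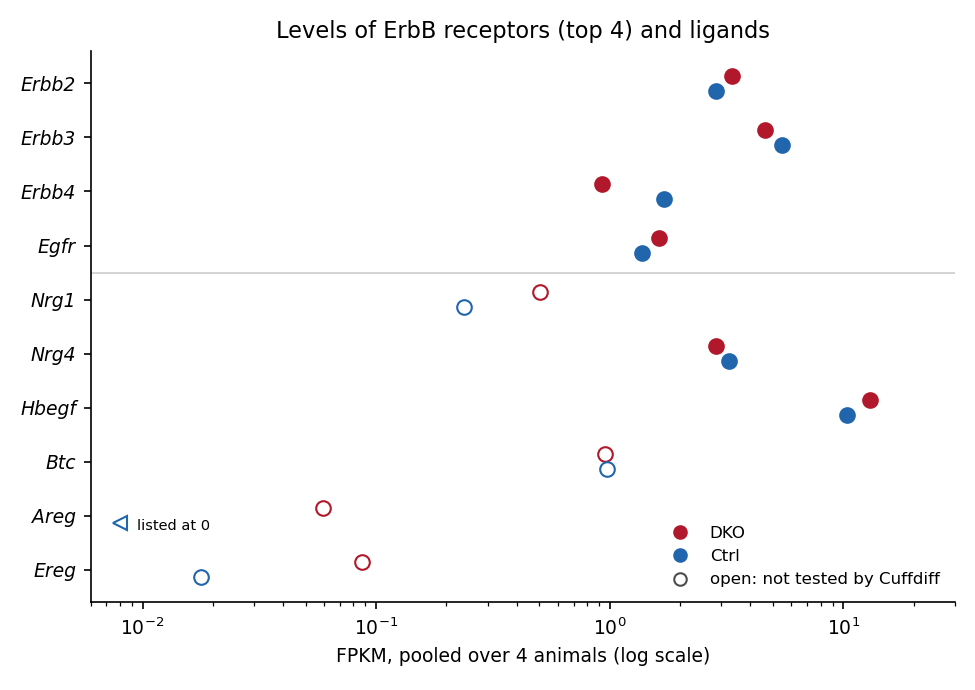
FPKM (log scale) of each ErbB gene in DKO (red) and Ctrl (blue) ventricles, 1 pooled value per genotype with no error bar; open symbols mark genes that Cuffdiff did not test. Hbegf is the highest of the 10, Erbb4 is the receptor with the widest gap (0.927 FPKM in DKO, 1.71 FPKM in Ctrl), and Areg is listed at 0 in Ctrl.

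Erbb4 encodes the receptor that binds neuregulins and also HB-EGF and betacellulin. Its log2 ratio of DKO over Ctrl was -0.88, and the authors' deposited table gives it an unadjusted p of 5e-05 and q = 0.00158. That p is the smallest value the table holds, and 385 called genes share it. By size of fold, Erbb4 stood at rank 32 of the 371 genes called lower, whose median fold was 1.32. Among all 12133 tested genes, 58 had a log2 ratio as low or lower, counting Erbb4 itself.

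Between the 5th and the 95th percentile, the 1239 tested loci within 1.5 times its mean level had log2 ratios of -0.46 to 0.78, and Erbb4 lay below that range. On the scale log2(FPKM + 1) the difference between DKO and Ctrl was -0.49, and with 0.1 FPKM added it was -0.82. Because the DKO value is under 1 FPKM, a filter that asks for 1 FPKM in both genotypes leaves Erbb4 out.

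**Figure D2:**
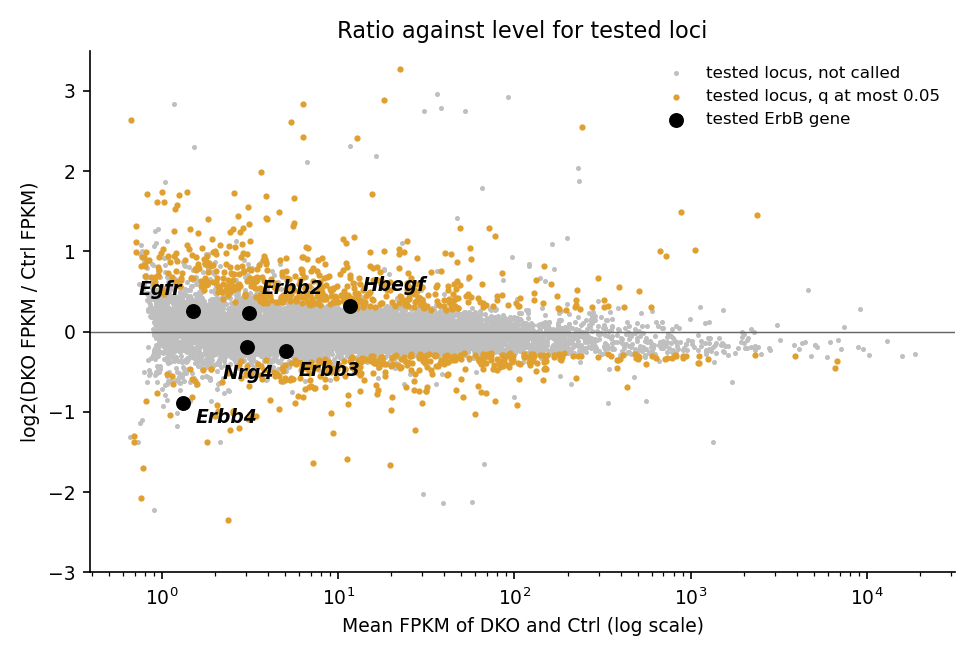
Each point is a tested locus, with mean FPKM on the x axis (log scale) and the log2 ratio of DKO over Ctrl on the y axis; orange points had a q of at most 0.05 and black points are the 6 tested ErbB genes (20 loci lie outside the y axis of -3 to 3.5). Erbb4, at -0.88, is the black point farthest from 0, and the other 5 lie between -0.24 and 0.32.

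In the mm9 build, the listed interval of Erbb4 runs from 68086540 to 69154633 on chromosome 1, a span of 1068 kb. The table lists 1 Erbb4 transcript, matched to a RefSeq entry and 4257 bases long, so the splice forms of the receptor are not told apart. The GENCODE M21 annotation, made for a later build, holds 5 Erbb4 transcripts with a longest one of 12037 bases. Reads on bases outside the listed transcript are not analysed here. In the authors' deposited isoform table this transcript had q = 0.00312, where 1.12% of 18490 tested isoforms were called lower. Erbb4 was also called lower among transcription start site groups (1.99% called lower in all) and coding sequences (1.66% called lower in all), tables that hold the same FPKM pair for this gene.

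Span moved with the lower calls. Of tested loci with a listed interval over 500 kb, 14 of 92 were called lower (15.2%) and 1 was called higher. Under 50 kb, 229 of 8498 were called lower (2.69%). The 14 include Erbb4 itself and the targeted gene Sox6, whose listed interval runs from 122614858 to 123182258 on chromosome 7. Cuffdiff lists the same interval for overlapping genes, so a short gene can carry the span of a long one. Over intervals that belong to a single gene row, 7 of 38 loci over 500 kb, Erbb4 among the 7, were called lower (18.4%). Under 50 kb it was 204 of 7366 (2.77%). Such intervals over 1000 kb numbered 6, and 3 of these were called lower, Erbb4, Magi2 (0.899 FPKM in DKO, 1.41 FPKM in Ctrl) and Pard3b (2.45 FPKM in DKO, 3.16 FPKM in Ctrl), a scaffold and a polarity protein gene. The other 3 were not called, among them Cdh13 at 101 FPKM in each genotype. The part of span in the Erbb4 value was not tested.

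**Figure D3:**
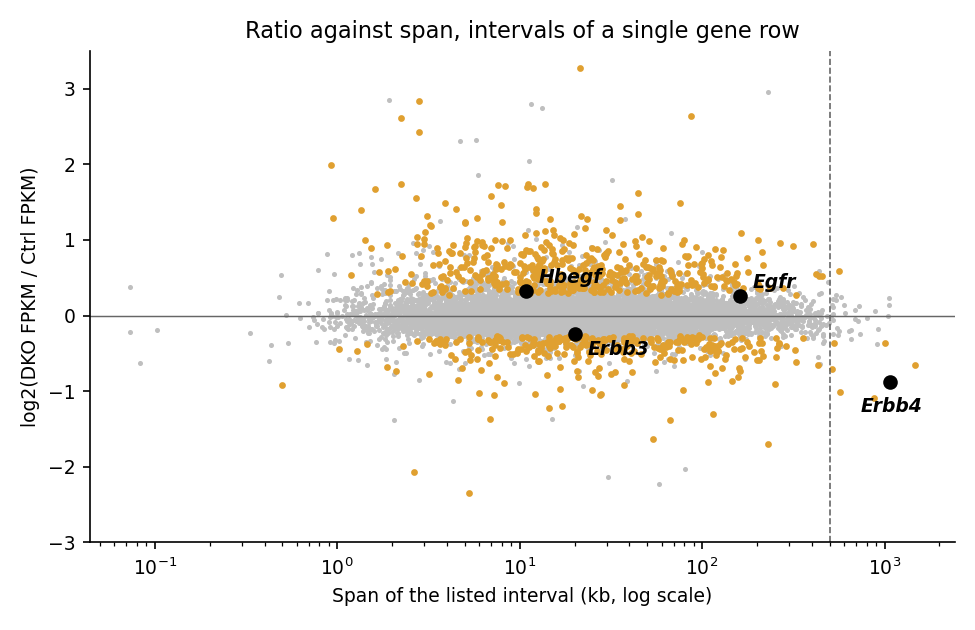
Log2 ratio of DKO over Ctrl (y axis) against the span of the listed interval in kb (x axis, log scale). Points are tested loci whose interval belongs to a single gene row, and orange points had a q of at most 0.05. Black points are Erbb3, Erbb4, Egfr and Hbegf, the tested ErbB genes with such an interval. The dashed line marks 500 kb (4 loci lie outside the y axis). Right of the line 7 of 38 loci were called lower, and Erbb4 is the lowest of the 6 beyond 1000 kb.

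Cells of the ventricle could differ in number between the genotypes, and in whole tissue fewer cells of a type and less RNA per cell cannot be told apart. Of 12 cardiomyocyte markers none was called, where 4.3% of all tested genes were called higher and 3.06% lower. A log2 ratio under 0 was held by 11 of the 12. The median of their log2 ratios was -0.20 and the range -0.31 to 0.04. Their summed level was 69094 FPKM in DKO and 79605 FPKM in Ctrl. Erbb4, from a set selected on these same values, had a ratio below that of each of the 12 cardiomyocyte markers. The part of cell number in the Erbb4 ratio was not tested.

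The promoter of Erbb4 was looked at because Sox5 and Sox6 bind DNA through an HMG box that recognises AACAAT. RefSeq promoter windows of 300 bases, from 250 before to 50 after the start, were at hand for 6 of the 10 genes (Erbb2, Erbb4, Egfr, Nrg4, Btc and Areg) in the build GRCm38.p6. AACAAT, or ATTGTT on the other strand, stood in the window of 1 of them, Erbb4, and in 10.7% of all 32851 windows. In Erbb4 the match runs from 73 to 68 bases before the start. The Erbb4 window (chr1:69108010-69108309, minus strand) is printed with the match in capitals, followed by that of its partner Erbb2 (chr11:98412234-98412533, plus strand), which has no match.
Erbb4: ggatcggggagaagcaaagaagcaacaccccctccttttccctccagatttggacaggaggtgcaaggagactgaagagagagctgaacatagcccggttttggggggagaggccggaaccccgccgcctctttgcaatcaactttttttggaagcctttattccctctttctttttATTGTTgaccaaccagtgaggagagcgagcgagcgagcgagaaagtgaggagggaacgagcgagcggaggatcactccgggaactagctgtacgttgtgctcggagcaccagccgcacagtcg
Erbb2: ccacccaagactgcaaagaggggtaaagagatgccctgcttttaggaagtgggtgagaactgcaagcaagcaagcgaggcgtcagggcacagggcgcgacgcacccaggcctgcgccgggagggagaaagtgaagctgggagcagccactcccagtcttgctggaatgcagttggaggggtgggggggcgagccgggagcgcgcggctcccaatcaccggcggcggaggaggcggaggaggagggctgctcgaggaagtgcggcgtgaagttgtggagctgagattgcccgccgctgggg
A match of these 6 letters is a description of the window and says nothing of binding.

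Erbb2 was at 3.35 FPKM in DKO and 2.86 FPKM in Ctrl, and the log2 ratio was 0.23 (q = 0.681, authors' deposited table). Its listed interval on chromosome 11, from 98273798 to 98300302 in mm9, is shared with 1810046J19Rik, which RefSeq names Mien1. Mien1 stood at 68.0 FPKM in DKO and 61.7 FPKM in Ctrl, 20.3 times the Erbb2 level in DKO. The library kit does not mark the strand, so reads where the 2 genes overlap cannot be assigned with certainty.

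Erbb3 was the receptor gene with the highest level, at 4.62 FPKM in DKO against 5.46 FPKM in Ctrl. Its log2 ratio was -0.24, and the authors' deposited table gives an unadjusted p of 0.0453 and q = 0.285, so it was not called. The gene lies on chromosome 10 at 128006424 to 128026557. In nerves Erbb3 is the neuregulin receptor of Schwann cells. Of 11 Schwann cell and nerve markers 6 were tested, none was called lower, and 1 was called higher, the broadly expressed prion protein gene Prnp (117 FPKM in DKO, 94.2 FPKM in Ctrl). Among all tested genes 4.3% were called higher. Of the 6 tested markers, 4 had a log2 ratio above 0 and 2 below, and the median was 0.16. The summed level of the list was 167.8 FPKM in DKO and 138.1 FPKM in Ctrl, most of it from Prnp and from Pmp22 (40.4 FPKM in DKO, 34.3 FPKM in Ctrl), genes that other cells also express. The other 9 markers summed to 10.2 FPKM in DKO and 9.65 FPKM in Ctrl. No marker of the list was at 0, and their part in the Erbb3 value was not tested.

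Egfr encodes the receptor for EGF, HB-EGF, amphiregulin and epiregulin. It was at 1.63 FPKM in DKO and 1.37 FPKM in Ctrl, and the log2 ratio was 0.25 (q = 0.561, authors' deposited table). Egfr was the only gene of the 10 with more than 1 listed isoform. The transcript of 5965 bases, which encodes the full-length receptor, was at 1.31 FPKM in DKO and 1.13 FPKM in Ctrl (q = 0.763 in the authors' deposited isoform table). The shorter transcript of 2678 bases, which encodes a truncated form without the kinase domain, was at 0.315 FPKM in DKO and 0.243 FPKM in Ctrl and was not tested. It made up 19.3% of the Egfr level in DKO and 17.7% in Ctrl.

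Set beside each other per length, the receptor genes kept Erbb3 at the top and Erbb2 next in each genotype. Egfr stood above Erbb4 in DKO and below it in Ctrl. The 4 receptors summed to 10.53 FPKM in DKO and 11.4 FPKM in Ctrl. Erbb4 held 8.81% of that sum in DKO and 15.0% in Ctrl, and Erbb2 held 31.8% in DKO and 25.1% in Ctrl. The level of Erbb2 was 3.62 times that of Erbb4 in DKO and 1.67 times in Ctrl. These shares rest on 1 pooled value per gene and on the listed transcript lengths, and no error can be given for them.

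Hbegf, which encodes heparin-binding EGF-like growth factor, was the most abundant of the ligands. It was at 13.0 FPKM in DKO, against 10.4 FPKM in Ctrl, and made up 74.5% of the summed FPKM of the 6 ligands in DKO and 69.9% in Ctrl. Its log2 ratio was 0.32, and its unadjusted p was 0.00565. Its q was 0.0683 per the authors' deposited table and missed the threshold, so it was not called. At the isoform level the q was 0.127. For comparison, the 2878 tested loci within 1.5 times its mean level had a log2 ratio of 0.27 at the 95th percentile.

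Hbegf is made by endothelial cells, muscle cells and macrophages. Macrophage and monocyte markers were called higher in 11 of 13 and lower in none, where 4.3% of all tested genes were called higher. Their summed level was 423.9 FPKM in DKO and 273.6 FPKM in Ctrl. Fibroblast markers were called higher in 7 of 10, at a summed 802.5 FPKM in DKO and 623.1 FPKM in Ctrl. Of 12 endothelial markers none was called, at a summed 566.1 FPKM in DKO and 599.3 FPKM in Ctrl, with a median log2 ratio of -0.07. For muscle cells, the median was -0.20 for cardiomyocyte markers and 0.18 for smooth muscle and pericyte markers. No marker of these lists was at 0 FPKM, and their part in the Hbegf value was not tested.

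Nrg1 encodes neuregulin-1, the ligand for which the endothelium of the heart is best known. It was at 0.501 FPKM in DKO and 0.237 FPKM in Ctrl, a log2 ratio of 1.08, and Cuffdiff did not test it. The 1040 untested loci within 1.5 times its mean level had log2 ratios of -0.69 to 1.24 between the 5th and the 95th percentile, and Nrg1 lies within that range. With 1 FPKM added to each value the log2 difference was 0.28. The table lists 1 Nrg1 transcript of 2103 bases, in an interval of 100.2 kb on chromosome 8 at 32928500 to 33028675, while GENCODE M21 holds 18 transcripts of the gene. Forms of Nrg1 that begin at other promoters are not analysed here.

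Nrg4, a neuregulin that binds Erbb4, was at 2.84 FPKM in DKO and 3.25 FPKM in Ctrl, and its log2 ratio was -0.20 (q = 0.915, authors' deposited table). Among the 6 ligands of the set it was next in level after Hbegf in each genotype. Its interval on chromosome 9, from 55056742 to 55131432, is also listed for Fbxo22, a subunit gene of a ubiquitin ligase at 21.9 FPKM in DKO and 22.6 FPKM in Ctrl. As for Erbb2, reads in an overlap cannot be assigned without strand.

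Btc, Areg and Ereg encode betacellulin, amphiregulin and epiregulin. With Epgn, the gene of epigen, they lie within 375 kb on chromosome 5, from 91456543 to 91832020 in mm9. Btc was at 0.957 FPKM in DKO and 0.969 FPKM in Ctrl, a log2 ratio of -0.02. Ereg was at 0.087 FPKM in DKO and 0.0178 FPKM in Ctrl. Areg was at 0.059 FPKM in DKO and was listed at 0 in Ctrl. Epgn was at 0.0718 FPKM in DKO and 0.119 FPKM in Ctrl. Of these 4 neighbours, Btc alone came near 1 FPKM, and Cuffdiff tested none of them.

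The 4 untested genes also had the smallest products of level and length. FPKM multiplied by transcript length in kb is a rough measure of the fragments a gene received, relative to the others in the same genotype. For the untested Nrg1, Btc, Areg and Ereg this product was at most 2.79 in either genotype, and for the 6 tested genes it was at least 3.95, the value of Erbb4 in DKO. The Areg product was 0.0707 in DKO, and that of Hbegf was 30.8 in DKO and 24.7 in Ctrl. Read totals are unknown here, so no counting interval is given.

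The rest of the pathway was described by 5 lists with 101 genes in the table, of which 86 were tested, 7 were called higher and 1 was called lower. These lists were chosen with earlier results of these data known, and their counts are set beside the 4.3% called higher and 3.06% called lower among all tested genes. The median log2 ratio of all tested genes was -0.0042. The lists differed in how many of their genes were called, and most calls were among genes that ERK signaling can induce.

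Of 5 other ErbB ligand genes, 1 was tested. Egf itself was at 7.98 FPKM in DKO, against 6.38 FPKM in Ctrl, and its log2 ratio was 0.32 (q = 0.0669, authors' deposited table), so it was not called. Nrg2 stood at 0.332 FPKM in DKO and 0.525 FPKM in Ctrl. Tgfa, which encodes a ligand of Egfr, stood at 0.515 FPKM in DKO and 0.297 FPKM in Ctrl. Nrg2 and Tgfa had no test.

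Genes for the processing and shedding of ErbB ligands had 1 called gene of 11 tested, with a median log2 ratio of 0.05. The shares over all tested genes were 4.3% called higher and 3.06% called lower. Adam19, a protease that can cleave neuregulin, rose to 12.5 FPKM in DKO, against 9.27 FPKM in Ctrl, a fold of 1.35 (q = 0.0029 in the authors' deposited table). Adam17, the main sheddase of HB-EGF and amphiregulin, was at 18.8 FPKM in DKO and 18.5 FPKM in Ctrl and was picked after its values were seen.

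Negative regulators of the receptors held no called gene of 17 tested, with log2 ratios of -0.22 to 0.21. For all tested genes, 4.3% were called higher and 3.06% lower. An unadjusted p under 0.05 was reached by 1 of the 17, beside 16.5% of all tested genes. The ubiquitin ligase gene Nedd4 was at 152 FPKM in each genotype. The adaptor gene Sh3kbp1 was at 123 FPKM in DKO and 143 FPKM in Ctrl. Usp8, the gene of a deubiquitinase of internalised receptors, was at 16.3 FPKM in DKO and 17.4 FPKM in Ctrl. Picked after its values were seen, Errfi1, whose protein blocks the Egfr and Erbb2 kinases, was at 13.9 FPKM in DKO and 12.9 FPKM in Ctrl.

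Adaptors and signal relay genes held 1 called gene of 34 tested, with a median log2 ratio of -0.01. Among all tested genes 3.06% were called lower. Pik3r1, the gene of the p85α regulatory subunit of PI3-kinase, fell to 27.5 FPKM in DKO, against 35.6 FPKM in Ctrl, at a log2 ratio of -0.37 (q = 0.00158 in the authors' deposited table). The other 33 tested genes of that list were not called.

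Targets and feedback genes of ERK signaling were called higher in 6 of 23 tested and lower in none. Beside this, 4.3% of all tested genes were called higher and 3.06% lower. The list, chosen with earlier results of these data known, had a median log2 ratio of 0.21. Of these 23, 22 had log2 ratios above 0, compared with 5935 of 12133 tested genes in all. The called genes were Myc (2.26 FPKM in DKO, 0.966 FPKM in Ctrl), Egr2 (1.26 FPKM in DKO, 0.661 FPKM in Ctrl), Etv5 (5.12 FPKM in DKO, 3.48 FPKM in Ctrl), Ier3 (55.0 FPKM in DKO, 37.9 FPKM in Ctrl), Phlda1 (26.2 FPKM in DKO, 19.4 FPKM in Ctrl) and Fosl2 (10.6 FPKM in DKO, 8.19 FPKM in Ctrl). All but Ier3 and Phlda1 encode transcription factors. Genes of this list can also respond to signals other than ErbB ligands, and the part of any such signal in the calls was not tested. The feedback inhibitor genes Dusp6 (15.6 FPKM in DKO, 13.8 FPKM in Ctrl) and Spry2 (11.2 FPKM in DKO, 12.8 FPKM in Ctrl), picked after their values were seen, were not called. Spry2, at a log2 ratio of -0.19, was the 1 gene of the 23 below 0. The other tested Dusp and Spry genes of the list were above 0 and not called. Macrophage and fibroblast markers moved in the same direction, as did 7 of 8 smooth muscle and pericyte markers. In contrast, 11 of 12 cardiomyocyte and 9 of 12 endothelial markers had log2 ratios below 0. The part of cell numbers in these calls was not tested.

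**Figure D4:**
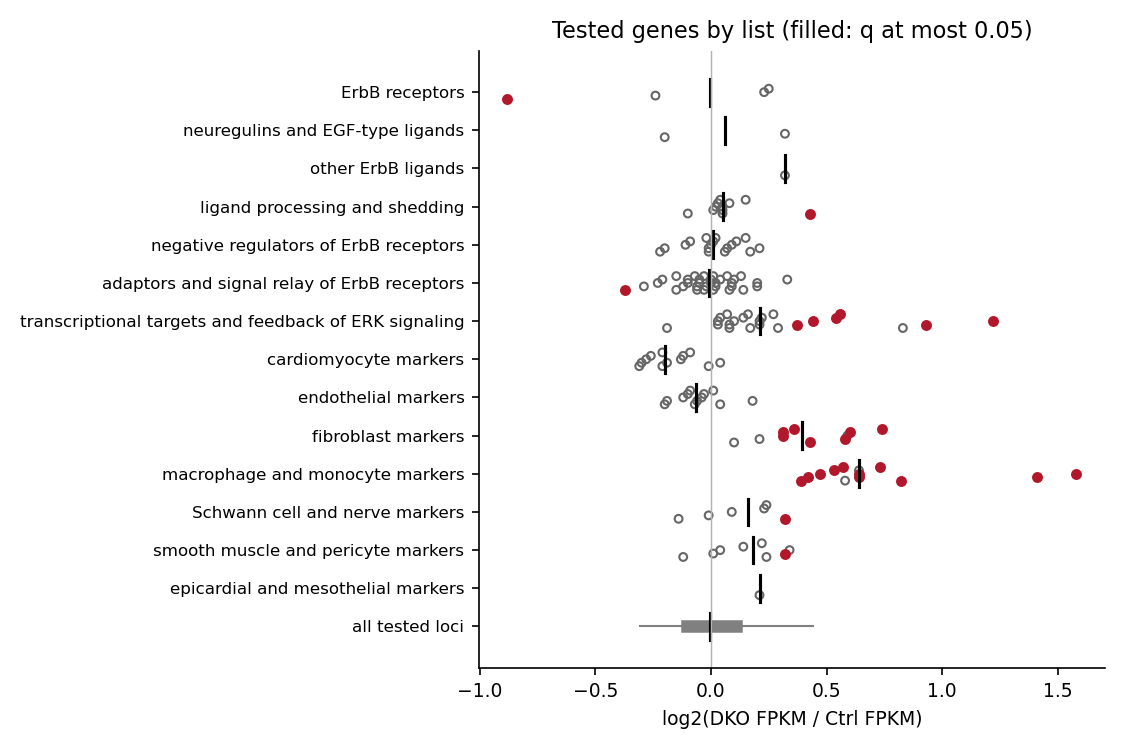
Log2 ratios of DKO over Ctrl (x axis) of the tested genes of each list, with filled points at a q of at most 0.05 and black bars at the list median; the bottom line gives all tested loci from the 5th to the 95th percentile, with the thick part from the 25th to the 75th. Erbb4, at -0.88, is the leftmost point. Filled are 11 of 13 macrophage and monocyte markers, 7 of 10 fibroblast markers and 6 of 23 ERK targets, and no negative regulator is. For all tested genes, 4.3% were called higher and 3.06% lower.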

How the data were processed

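RNA of cardiac ventricles from 4 DKO and 4 Ctrl mice was sequenced as single-end libraries of a TruSeq kit, per the labels. The authors used TopHat2 2.0.9, Cufflinks 2.1.1 and Cuffdiff 2.1.1 with mm9, per the submitters' processing notes. Annotation and settings, not given in the sources used here, could shift single values. Each of the 5 deposited tables holds 1 FPKM value per genotype, with the authors' p-values and q-values, per the file headers. The deposited log2 fold change sets Ctrl over DKO, so log2 ratios were recomputed as DKO over Ctrl, and in the deposited subset the absolute difference was at most 9.72e-06. The authors' q-values equalled Benjamini-Hochberg adjustment to within 5.18e-07, with code checked on simulated data. Depth per library is unknown here. No test across animals could be run, and calls are the authors' Cuffdiff calls. Members and gene lists were chosen with earlier results of these data known. Named genes were the 10 members, Sox5, Sox6 and, per pathway list, the called genes or, with none called, the 3 at the highest FPKM, and from marker lists the highest or called genes. Adam17, Errfi1, Dusp6, Spry2, the long loci and the neighbouring genes were named after their values were seen. Alternatives covered thresholds, an FPKM filter, pseudocounts, rescaling and feature level. Marker lists covered cardiomyocytes, endothelium, fibroblasts, macrophages, Schwann cells, smooth muscle and epicardium. Of the Schwann cell list, 1 gene is not reported here. Computations used Python 3.11.15, pandas 2.3.3, numpy 2.4.6 and matplotlib 3.10.9.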

Additional observations from a re-analysis of the deposited data

How the results depend on the processing

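Erbb4 stayed the 1 called gene of the set at a q under 0.01, with a fold of at least 1.3, and among transcription start site groups and coding sequences. With 1 FPKM required in both genotypes, 0 genes and 0 isoforms of the set were called, because the Erbb4 value in DKO lies under that filter. At an unadjusted p under 0.05, 3 genes and 3 isoforms passed, those of Erbb4, Erbb3 and Hbegf, beside 16.5% of all tested genes and 10.3% of all tested isoforms. Of the other pathway genes 8 were called, 8 at a q under 0.01, 6 with a fold of at least 1.3, 6 with the FPKM filter, and 18 at an unadjusted p under 0.05. Adding 1 FPKM moved 5 of 9 log2 ratios by over 1.5 times (Erbb4 to -0.49, Egfr to 0.15, Nrg1 to 0.28, Btc to -0.01, Ereg to 0.09), and adding 0.1 FPKM moved 1, Ereg to 0.67. Rescaling to a median log2 ratio of 0, the main isoform and the sum of coding sequences moved none by that much, and no log2 ratio changed sign. The count of called loci over 500 kb was 15, or 8 over intervals of a single gene row, an alternative chosen after seeing the data. No paired analysis was possible because the tables hold 1 pooled value per genotype, and leaving out an animal was not possible for the same reason. Values under 1 FPKM, those of Nrg1, Btc, Areg and Ereg and that of Erbb4 in DKO, are the ones depth limits most, and depth is unknown.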

Other observations

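No other gene was listed within 60 kb of Erbb4, Nrg1 or Btc. Near Egfr, which was not called, Plek, the gene of a platelet and leukocyte protein 57298 bases from the Egfr interval, was called higher, at 2.44 FPKM in DKO and 1.73 FPKM in Ctrl (q = 0.0356 in the authors' deposited table, in which 4.3% of tested genes were called higher). Tcap, the gene of the titin cap protein, lies 27530 bases from Erbb2 and was at 1894 FPKM in DKO and 2180 FPKM in Ctrl, 565 times the Erbb2 level in DKO. Grb7, an adaptor gene on the other side of Erbb2 that is amplified with it in human breast cancer, was at 0.00952 FPKM in DKO and listed at 0 in Ctrl.

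Among the remaining marker lists, smooth muscle and pericyte genes were called higher in 1 of 8, where 4.3% of all tested genes were called higher. Their summed level was 648 FPKM in DKO and 563.7 FPKM in Ctrl. Of 6 epicardial and mesothelial genes 1 was tested and none was called.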
